A study of Mus musculus with 12 samples.

Results

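The DNA replication machinery was taken as 45 mouse genes listed by symbol, matched through their Entrez identifiers to the count table, and grouped by the step of replication that their products serve. All 45 were found among the 27179 genes of the table, and all 45 passed the filter on low counts, along with 13134 genes in all. The steps are origin licensing (6 genes), the replicative helicase and its loading factors (12), the kinase that fires origins (2), DNA polymerases and primase (8), the sliding clamp and its loader (6), single-strand binding and joining of Okazaki fragments (4), supply of deoxynucleotides (5), and chromatin and histone mRNA (2). The rule uses symbols and no measured value, but the 45 genes were chosen with earlier results of these data known.

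RNA-seq was carried out on T-cell acute lymphoblastic leukemia cells from the spleens of mice that carried ALL101, 1 primary leukemia of genotype Vav-tTA;TRE-GFP-shIkaros. The Vav promoter expresses the tetracycline transactivator tTA in blood cells, and tTA drives a GFP-linked hairpin against Ikaros, a zinc-finger factor of lymphocytes encoded by Ikzf1. The untreated group was 3 recipient mice with the hairpin on, labelled GFPhigh, and the doxycycline group was 3 recipient mice given doxycycline for 3 days to turn the hairpin off, labelled GFPmid. For untreated mouse 3 the library is named INJ where the others have a GFP sort, and whether it was sorted alike is unclear. Cells of both groups carry both transgenes, the mice share 1 leukemia, and no age or strain is given in the sources used here. The gate and the treatment cannot be told apart, nor can doxycycline itself and the return of Ikaros, since no leukemia without the hairpin was given the drug. Ikzf1 stood at 153, 149.7 and 159 CPM (counts scaled to a common library total) in the untreated mice and at 1438, 1523 and 1495 CPM in the doxycycline mice, which follows the labels. Total counts ran from 29904744 to 44949303 per mouse, and the 45 genes together took 1.38% of them in each untreated mouse and 1.22%, 0.994% and 1.21% in the doxycycline mice. T-cell markers summed to 5110 to 5371 CPM in the untreated mice and 6896 to 8433 CPM in the doxycycline mice, with 10 of 10 detected, 5 of them higher and 2 lower after doxycycline.

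Replication begins in G1, when the origin recognition complex, Cdc6 and Cdt1 load the MCM2-7 ring onto DNA. At the start of S phase, cyclin-dependent kinases and the Cdc7-Dbf4 kinase turn the ring into an active helicase with Cdc45 and GINS, after which polymerase alpha-primase primes both strands, polymerases epsilon and delta extend them, and the clamp PCNA holds the polymerases on DNA. Most of these genes are transcribed at the G1/S transition by E2F factors, which the retinoblastoma family restrains, so their mRNA levels are widely read as a sign of proliferation.

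Promoter sequences were compared because the genes are known as E2F targets. In a RefSeq table of GRCm38.p6 promoters, each 250 bases before to 50 bases after a transcription start, 37 of the 45 genes had an entry, with 45 promoters in all. The E2F letters TTCCCGC or TTGGCGC, on either strand, stood in 21 of these 45 promoters (46.7%), and by gene in 19 of the 37. They stood in 6.81% of all 32851 promoters and 8.70% of the 22271 promoters of genes in the count table. The latter include genes that did not pass the filter on low counts, and the share among tested genes alone was not counted. The CCAAT box, which binds NF-Y, stood in 57.8% against 37.4% of all promoters, the CHR letters TTTGAA or TTCGAA in 22.2% against 19.2%, the E-box CACGTG in 13.3% against 7.15%, and the Ikaros core TGGGAA in 33.3% against 25.6%. A CCAAT box on the minus strand (ATTGG) followed by CGC also holds TTGGCGC, and the final bases of TTCCCGC can begin a CCAAT box, so these motifs can overlap. The Ikaros core and the reverse E2F letters GCGGGAA share GGGAA but are never the same match. A match of letters is a description and does not show that a factor binds.

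Below are the 250 bases before the start for the 6 genes with the smallest p-values whose upstream stretch holds an E2F match and lies outside the annotated gene. They are Rpa2 (chr4:132768110-132768359, plus strand), Mcm6 (chr1:128359706-128359955, minus strand), Uhrf1 (chr17:56303087-56303336, plus strand), Prim1 (chr10:128014965-128015214, plus strand), Rrm1 (chr7:102441445-102441694, plus strand) and Gins3 (chr8:95633309-95633558, plus strand) of GRCm38.p6. Each is written 5′ to 3′ on the gene's strand, and capitals mark E2F letters and CCAAT boxes on either strand.
Rpa2: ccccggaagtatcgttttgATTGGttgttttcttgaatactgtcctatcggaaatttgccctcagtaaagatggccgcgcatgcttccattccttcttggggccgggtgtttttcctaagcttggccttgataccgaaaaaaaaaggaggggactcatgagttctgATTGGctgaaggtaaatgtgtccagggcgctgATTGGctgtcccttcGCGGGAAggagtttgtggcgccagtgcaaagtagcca
Mcm6: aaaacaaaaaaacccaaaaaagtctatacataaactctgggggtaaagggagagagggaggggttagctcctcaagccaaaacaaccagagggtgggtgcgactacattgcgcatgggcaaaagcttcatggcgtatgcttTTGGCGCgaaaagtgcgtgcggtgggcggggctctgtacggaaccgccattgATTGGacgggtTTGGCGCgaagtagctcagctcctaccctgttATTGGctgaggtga
Uhrf1: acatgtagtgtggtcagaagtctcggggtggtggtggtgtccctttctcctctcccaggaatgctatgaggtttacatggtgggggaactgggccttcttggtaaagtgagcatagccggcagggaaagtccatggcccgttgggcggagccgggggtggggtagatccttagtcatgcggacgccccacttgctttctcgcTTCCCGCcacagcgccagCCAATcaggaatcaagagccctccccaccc
Prim1: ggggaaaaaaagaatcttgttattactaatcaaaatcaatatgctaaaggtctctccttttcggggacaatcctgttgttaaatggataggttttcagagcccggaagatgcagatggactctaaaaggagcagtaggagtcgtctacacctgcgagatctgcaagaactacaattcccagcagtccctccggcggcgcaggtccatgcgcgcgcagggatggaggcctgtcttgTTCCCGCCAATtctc
Rrm1: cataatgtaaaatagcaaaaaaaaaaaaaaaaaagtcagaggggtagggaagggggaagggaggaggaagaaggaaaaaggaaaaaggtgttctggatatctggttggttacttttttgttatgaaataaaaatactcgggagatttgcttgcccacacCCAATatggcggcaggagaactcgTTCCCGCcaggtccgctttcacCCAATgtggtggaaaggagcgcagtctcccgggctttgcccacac
Gins3: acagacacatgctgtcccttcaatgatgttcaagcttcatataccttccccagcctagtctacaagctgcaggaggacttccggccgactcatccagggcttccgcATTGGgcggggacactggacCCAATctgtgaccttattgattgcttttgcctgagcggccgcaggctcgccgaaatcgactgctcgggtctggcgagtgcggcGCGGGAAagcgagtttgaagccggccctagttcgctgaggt
In Mcm6, 2 E2F matches lay 109 and 46 bases before the start, and in Rpa2, Uhrf1, Prim1, Rrm1 and Gins3 a single match lay 37, 48, 15, 67 and 41 bases before it. In Prim1 the E2F match and the CCAAT box overlap. Rpa2, Mcm6, Uhrf1 and Prim1 were lower after doxycycline, whereas Rrm1 and Gins3 did not pass the test, so the matches are found on both sides of the threshold. Among the genes with a promoter entry, 13 of 22 that fell and 6 of 15 that did not pass held E2F letters.

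After doxycycline 25 of the 45 replication genes were lower and 0 higher, and 20 did not pass (edgeR quasi-likelihood test, Benjamini-Hochberg adjusted p under 0.05). Over all 13134 genes tested, 25.2% were lower and 24.8% higher. Without adjustment, 31 of the 45 were lower and 1 higher at p under 0.05 in edgeR, where the share of all genes was not counted. DESeq2 and limma-voom also called 0 higher, against 24.7% and 24.8% of all genes. The median log2 fold change of the 45 genes (doxycycline minus untreated) was -0.30, a median level 0.812 times that of untreated cells, with single genes from -0.58 for Uhrf1 to 0.25 for Rrm2, and the median over all genes tested was -0.0037. Every doxycycline mouse lay below every untreated mouse for 32 of the 45 genes, against 30.9% of all genes tested, and every one lay above for 1, against 30.2%. In bulk RNA, fewer cells in S phase and less of these mRNAs per cell cannot be told apart.

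**Figure D1:**
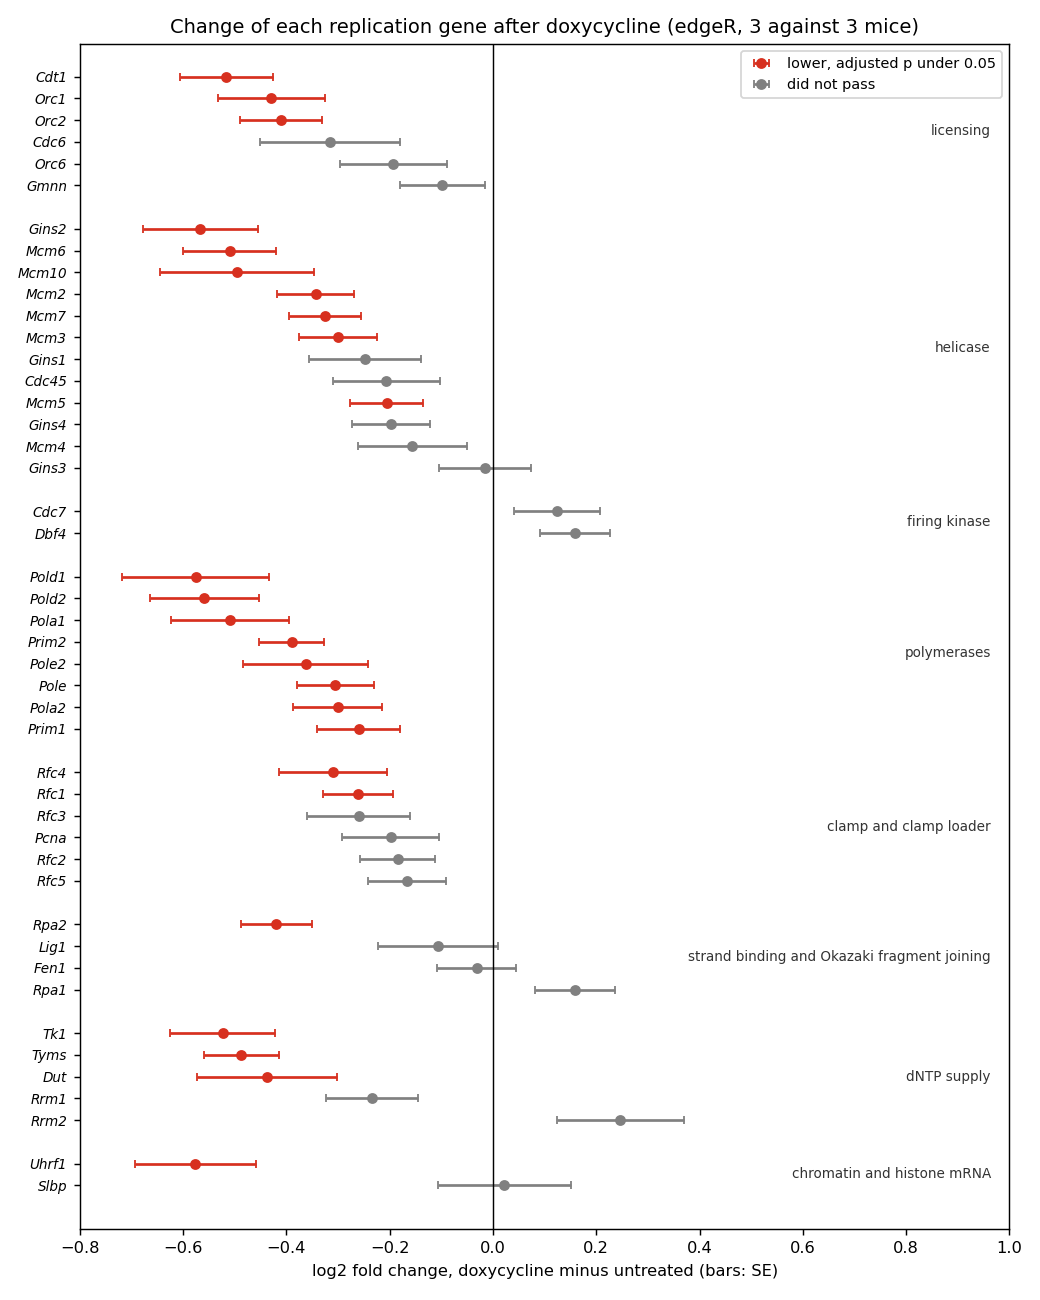
The log2 fold change of each of the 45 genes (doxycycline minus untreated, x axis) is plotted by step, with bars for the SE from edgeR, red for the 25 genes that were lower at an adjusted p under 0.05 and grey for the 20 that did not pass. All 8 polymerase and primase genes are red, and the 5 points right of 0 are Cdc7, Dbf4, Rpa1, Rrm2 and Slbp.

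Doxycycline mouse 2 held the lowest level of the 3 doxycycline mice in 45 of 45 replication genes. Over all genes tested it was the lowest in 36.6%. This pattern was noticed after the values were seen. Its level relative to the mean of doxycycline mice 1 and 3 had a median log2 value of -0.26 over the 45 genes, from -0.58 for Mcm10 to -0.08 for Gins4, and of -0.0016 over all genes tested. It was the lowest for 44 of the 45 genes in each of the 2 sequencing runs taken alone. Ikzf1 was at 1438, 1523 and 1495 CPM in doxycycline mice 1, 2 and 3, so mouse 2 was the highest by a narrow margin. A relation between Ikzf1 and the replication genes across these mice was not tested. Doxycycline mouse 2 was also the lowest treated mouse for most genes of the 8 surrounding lists. It was the lowest for 88.9% of chromatin assembly genes, 83.3% of other licensing and helicase genes, 81.8% of fork protection genes and of other deoxynucleotide genes, 77.8% of Cdt1 and geminin turnover genes, 71.4% of other polymerase genes, 68.2% of G1/S genes and 58.3% of G2/M and mitosis genes. The median log2 values of these lists ran from -0.21 (other polymerase genes) to -0.12 (mitosis genes).

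The median SD of the log2 level was 0.17 in the doxycycline mice and 0.05 in the untreated mice. The SD was larger in the doxycycline mice for 42 of the 45 genes, and the share of all genes was not counted. Over all genes tested, chi-square per degree of freedom was 43.9 to 78.0 between doxycycline mice and 9.47 to 27.4 between untreated mice. This measure also grows with total counts. The wider treated spread is thus not shown to be particular to the replication genes. The 2 runs of a mouse differed by a median of 0.02 log2 units per gene over 270 comparisons. Without doxycycline mouse 2, 21 genes were lower and 3 were higher (Dbf4, Rpa1 and Rrm2), against 22.2% and 23.3% of all genes tested, and the median log2 fold change was -0.19. This mouse was the lowest treated mouse for all 45 genes, so leaving it out raises the treated mean of each. Calls without it are a check of stability and no separate evidence of a rise. The values of doxycycline mice 1 and 3 both lay below all untreated mice for 32 of the 45 genes, against 34.6% of all genes, and above for 6, against 33.7%. Without both that mouse and untreated mouse 3 23 were lower and 4 higher, the fourth being Slbp, against 24.7% and 24.8% of all genes. Of the 25 genes that fell, 17 stayed lower in all of the 17 alternative fits, namely Orc1, Orc2, Cdt1, Mcm2, Mcm3, Mcm6, Mcm7, Gins2, Pola1, Prim2, Pold1, Pold2, Pole, Rpa2, Tyms, Tk1 and Uhrf1. How many of all the genes called lower stayed so in every fit was not counted.

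**Figure D2:**
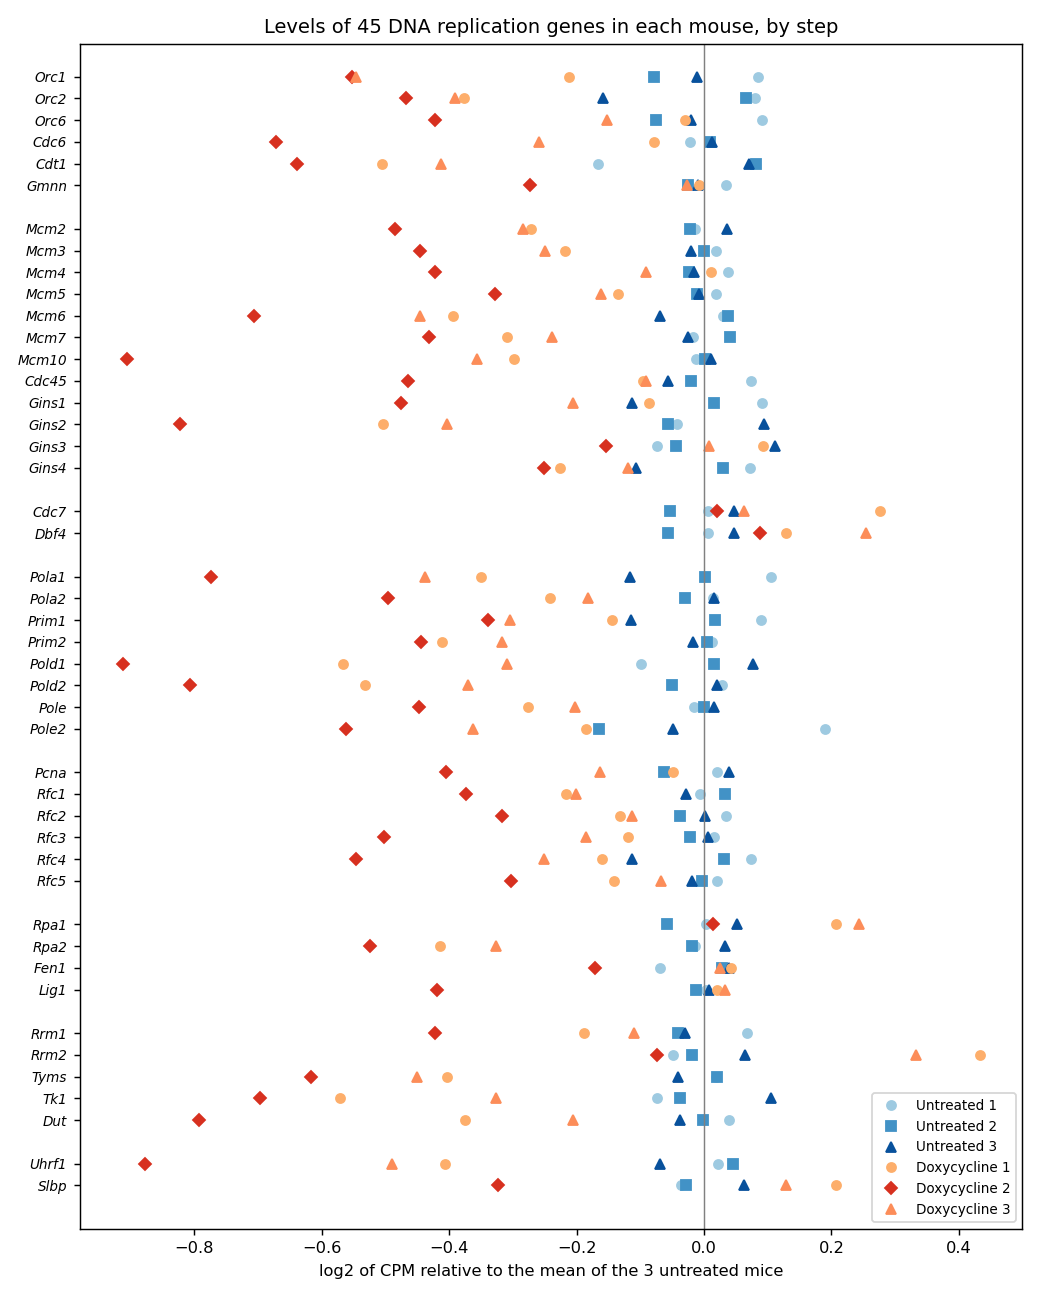
Each row is 1 of the 45 genes, grouped by step, and each point is 1 mouse, placed by the log2 of its CPM relative to the mean of the 3 untreated mice. Untreated mice (blue) lie close to 0, and doxycycline mouse 2 (red diamond) is the leftmost treated mouse in all 45 rows.

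Markers of other cell types were low and partly differed between the groups. Erythroid markers (7 of 8 listed genes in the table) summed to 10.3, 5.84 and 45.3 CPM in the untreated mice and 80.5, 71.1 and 64.0 CPM in the doxycycline mice, with 3 of 7 higher. Myeloid markers (9 of 9 in the table, none at 0 in all mice) summed to 25.5 to 43.6 CPM and 63.3 to 85.9 CPM, with 3 of 8 tested higher and 3 lower. The higher were Itgam (mean 9.86 CPM untreated and 44.1 CPM treated), Csf1r (4.51 and 15.4 CPM) and Cd68. The lower were S100a8, S100a9 and Mpo. B-cell markers summed to 0.931 to 1.45 CPM and 1.20 to 1.47 CPM, with Pax5 at 0 in all mice. The part of these cells in the replication gene values was not tested.

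Of the 6 licensing genes, 3 were lower after doxycycline (50%, against 25.2% of all genes tested). Cdt1, which with Cdc6 brings the MCM ring to origins, was at 223, 265 and 263 CPM in the untreated mice and 177, 161 and 188 CPM in the doxycycline mice. It fell by 30.1% (log2 fold change -0.52 ± 0.09 SE, edgeR adjusted p = 0.002), with no overlap between the groups. Orc2, a core subunit of the origin recognition complex, was at 144, 143 and 122 CPM untreated and 105, 98.6 and 104 CPM after doxycycline (edgeR adjusted p = 0.0032). Orc1, the ATP-binding subunit whose level is regulated through the cell cycle, was at 61.7, 55.1 and 57.7 CPM untreated and 50.2, 39.7 and 39.8 CPM treated (edgeR adjusted p = 0.0093). Both genes lay lower in every treated mouse, by log2 fold changes of -0.41 ± 0.08 for Orc2 and -0.43 ± 0.10 for Orc1.

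Gmnn, encoding geminin, the protein that binds and blocks Cdt1 after origins have fired, had the highest mean level per length of the licensing genes, at 122 ± 2.65 CPM per kilobase untreated, within the spread of Cdt1 (114 ± 10.8, SD, n = 3), which was higher in untreated mouse 2. It was at 122, 117 and 118 CPM in the untreated mice and 118, 98.6 and 117 CPM in the doxycycline mice, and these values overlapped (edgeR adjusted p = 0.35). Cdc6, the loading ATPase, was at 178, 182 and 182 CPM untreated and 171, 113 and 151 CPM treated. Its groups did not overlap, but with the wide treated values it did not pass (edgeR adjusted p = 0.088), and without doxycycline mouse 1 (0.024) and in DESeq2 it did. Orc6 had a log2 difference of -0.19 ± 0.10.

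The ratio of Cdt1 to Gmnn per length within a mouse, which does not depend on scaling between libraries, was 0.816, 1.01 and 0.992 in the untreated mice and 0.664, 0.727 and 0.718 in the doxycycline mice. Every treated mouse had the lower ratio (exact two-sided permutation p = 0.1, the smallest that 3 against 3 mice allow, and 0.15 adjusted over 6 pairs). The ratio of Orc1 to Orc2 was 0.478, 0.432 and 0.528 untreated and 0.535, 0.450 and 0.428 treated, and overlapped (exact permutation p = 0.9).

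Of the 12 helicase genes, 7 were lower (58.3%, against 25.2% of all genes tested), including 5 of the 6 subunits of the MCM2-7 ring. Mcm6, the most abundant of the ring genes per length, was at 1104, 1109 and 1031 CPM in the untreated mice and 823, 662 and 794 CPM in the doxycycline mice. It fell by 29.8% (log2 fold change -0.51 ± 0.09, edgeR adjusted p = 0.0022). Mcm7 was at 491, 511 and 488 CPM untreated and 401, 368 and 421 CPM treated (log2 fold change -0.32 ± 0.07, edgeR adjusted p = 0.0053). Mcm2, the subunit that also binds histones, was at 718, 714 and 743 CPM untreated and 601, 518 and 596 CPM treated (-0.34 ± 0.08, edgeR adjusted p = 0.0057). In these ring genes the lowest untreated mouse was above the highest treated mouse.

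Mcm3 and Mcm5 had log2 fold changes of -0.30 ± 0.08 and -0.21 ± 0.07 (edgeR adjusted p = 0.011 and 0.039). Mcm5 did not pass without untreated mouse 1, 2 or 3 or doxycycline mouse 2 or 3 (edgeR adjusted p = 0.097, 0.1, 0.071, 0.11 and 0.05, the last just over the threshold), and its log2 fold change was -0.14 with doxycycline mouse 2 removed. Nor did Mcm5 pass in run 1 alone with all mice, or without both doxycycline mouse 2 and untreated mouse 3. Mcm4 was at 606, 580.5 and 583 CPM untreated and 594, 440.0 and 554 CPM treated. Doxycycline mouse 1 lay within the untreated range of Mcm4, and the gene did not pass (log2 difference -0.16 ± 0.11, edgeR adjusted p = 0.25).

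The 6 ring subunits assemble in equal numbers, but their mRNA levels differed. In CPM per kilobase of gene length, the untreated means ran from 373 ± 15.1 for Mcm6 through 281 for Mcm3, 246 for Mcm5, 215 for Mcm2 and 207 for Mcm7 to 164 ± 3.84 for Mcm4 (SD, n = 3). Mcm2 and Mcm7 were neighbours within their spread. After doxycycline the order began with Mcm6 (262 ± 29.4) and ended with Mcm4 (147 ± 22.3). The highest subunit stood 2.26, 2.36 and 2.19 times above the lowest in the untreated mice and 1.71, 1.86 and 1.77 times in the doxycycline mice, so the ring genes lay closer together in all treated mice.

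**Figure D3:**
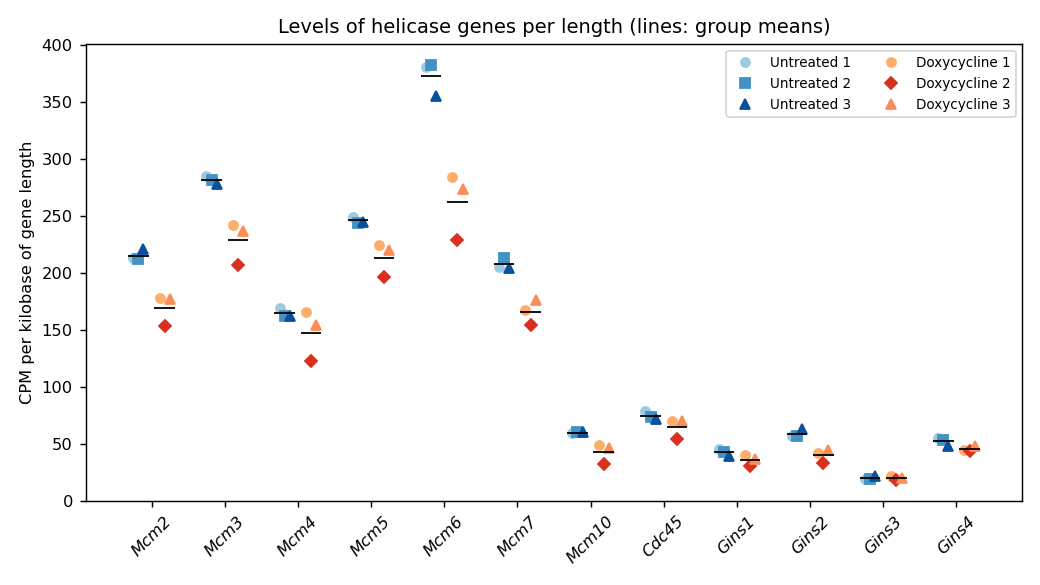
CPM per kilobase of gene length (y axis, from 0) is shown for the 12 helicase genes, with 1 point per mouse and a line at each group mean. Mcm6 falls from a mean of 373 to 262 CPM per kilobase, while Mcm4 stays the lowest of the ring in both groups.

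Mcm10, which binds the active helicase and is needed for origin firing, was at 207, 209 and 211 CPM in the untreated mice and 170.1, 112 and 163 CPM in the doxycycline mice. It fell by 29.1% (log2 fold change -0.50 ± 0.15, edgeR adjusted p = 0.027). The call was lost without untreated mouse 1, 2 or 3 (edgeR adjusted p = 0.066, 0.069 and 0.06), and without doxycycline mouse 2 the log2 fold change was -0.31 (edgeR adjusted p = 0.0045). The ratio of Mcm10 to Mcm2 per length was 0.279, 0.283 and 0.273 untreated and 0.273, 0.208 and 0.265 treated. Doxycycline mouse 2 stood below the others in this ratio, and doxycycline mouse 1 lay just under untreated mouse 3 (exact permutation p = 0.1, 0.15 adjusted over 6 pairs).

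Of the 4 GINS genes, whose products bridge the ring and polymerase epsilon, only Gins2 fell (25%, against 25.2% of all genes tested). The difference between the 4 was not tested. Gins2 was at 59.4, 58.8 and 65.3 CPM untreated and 43.1, 34.6 and 46.2 CPM treated (log2 fold change -0.57 ± 0.11, edgeR adjusted p = 0.0034). Gins3 was at 45.8, 46.8 and 52.1 CPM untreated and 51.4, 43.3 and 48.5 CPM treated, and these values overlapped (-0.01 ± 0.09, edgeR adjusted p = 0.90). Gins1 and Gins4 had log2 differences of -0.25 ± 0.11 and -0.20 ± 0.08. Gins1 passed without doxycycline mouse 1, and Gins4 without untreated mouse 3 or doxycycline mouse 3 (edgeR adjusted p = 0.048, 0.033 and 0.046). Gins4 also passed in run 2 alone. Exons of Gins2 overlap those of Gse1 on the other strand, so its count may hold reads of both. Cdc45, the third part of the active helicase, differed by -0.21 ± 0.10 on the log2 scale and did not pass (edgeR adjusted p = 0.13).

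Neither gene of the firing kinase was lower. Cdc7, the catalytic subunit that phosphorylates the MCM ring, was at 68.5, 65.7 and 70.5 CPM in the untreated mice and 82.7, 69.2 and 71.3 CPM in the doxycycline mice, and these values overlapped (log2 difference 0.12 ± 0.08, edgeR adjusted p = 0.25). Dbf4, its activating subunit, was at 155, 148 and 159 CPM untreated and 168, 163 and 183 CPM treated. Dbf4 was the only one of the 45 genes with every treated mouse above every untreated mouse, but it did not pass (0.16 ± 0.07, edgeR adjusted p = 0.083). With doxycycline mouse 2, its lowest treated mouse, left out, which raises the treated mean, it passed as higher (0.21 ± 0.07, edgeR adjusted p = 0.044). The ratio of Cdc7 to Dbf4 was 0.366, 0.367 and 0.366 untreated and 0.406, 0.350 and 0.321 treated, scattered on both sides of the untreated values (exact permutation p = 0.7).

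All 8 genes of the DNA polymerases and primase were lower, against 25.2% of all genes tested. In all 8, every treated mouse lay below every untreated mouse, against 30.9% of all genes tested. Prim2, the large primase subunit, was at 133, 132 and 130.3 CPM in the untreated mice and 99.2, 97.0 and 106 CPM in the doxycycline mice. With this narrow spread it had the smallest p of the polymerase genes (log2 fold change -0.39 ± 0.06, edgeR adjusted p = 0.0014). Pola1, the catalytic subunit of polymerase alpha, was at 306, 285 and 263 CPM untreated and 223, 166 and 210.0 CPM treated (-0.51 ± 0.11, edgeR adjusted p = 0.0068). Prim1, the catalytic primase subunit and the most abundant of the 8 per length, was at 164, 156 and 142 CPM untreated and 139.6, 122 and 125 CPM treated (-0.26 ± 0.08, edgeR adjusted p = 0.025). The lowest untreated and highest treated values of Prim1 nearly met.

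Pold1, the catalytic subunit of the lagging-strand polymerase delta, was at 288, 312 and 325 CPM untreated and 208, 164 and 249 CPM treated. It fell by 32.9% (log2 fold change -0.58 ± 0.14, edgeR adjusted p = 0.012). Pold2, its second subunit, was at 138, 130.3 and 137 CPM untreated and 93.3, 77.1 and 104 CPM treated and fell by 32.1% (-0.56 ± 0.10, edgeR adjusted p = 0.0028). Pole, the catalytic subunit of the leading-strand polymerase epsilon, was at 257, 260.0 and 263 CPM untreated and 215, 191 and 226 CPM treated (-0.31 ± 0.07, edgeR adjusted p = 0.0095). The ratio of Pole to Pold1 per length was 0.429, 0.401 and 0.388 untreated and 0.495, 0.559 and 0.436 treated, higher in every treated mouse (exact permutation p = 0.1, 0.15 adjusted over 6 pairs). Pola2, the second subunit of polymerase alpha, and Pole2, that of polymerase epsilon, had log2 fold changes of -0.30 ± 0.09 and -0.36 ± 0.12 (edgeR adjusted p = 0.019 and 0.036).

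The count of 8 was 5 without untreated mouse 1, where the share of all genes called lower was 19.6% in place of 25.2% and Pola2, Prim1 and Pole2 did not pass (edgeR adjusted p = 0.054, 0.089 and 0.12). Prim1 was also lost without untreated mouse 2, doxycycline mouse 2 or doxycycline mouse 3 (edgeR adjusted p = 0.079, 0.066 and 0.072), and Pole2 without untreated mouse 3, doxycycline mouse 2 or doxycycline mouse 3 (0.054, 0.092 and 0.086). Without doxycycline mouse 2 the log2 fold change of Pola2 was -0.20 (edgeR adjusted p = 0.033).

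Of the clamp gene and the 5 clamp loader genes, 2 were lower, both in the loader (33.3%, against 25.2% of all genes tested). Rfc1, the large subunit of replication factor C, was at 294, 302 and 289 CPM in the untreated mice and 254, 228 and 257 CPM in the doxycycline mice (log2 fold change -0.26 ± 0.07, edgeR adjusted p = 0.013). Rfc4 was at 132, 128 and 116 CPM untreated and 112, 85.6 and 105 CPM treated (-0.31 ± 0.10, edgeR adjusted p = 0.036). Rfc3 was at 101.1, 98.5 and 100.5 CPM untreated and 92.0, 70.6 and 87.9 CPM treated, a log2 difference of -0.26 ± 0.10 that just missed (edgeR adjusted p = 0.056). Rfc3 passed in 5 of the 17 alternative fits, namely with no filter on low counts, in DESeq2, in run 2 alone, with the replicate block and without doxycycline mouse 1. In all 5 loader genes the treated mice lay below the untreated mice, as they did for 30.9% of all genes tested. Rfc2 and Rfc5 did not pass, with log2 differences of -0.18 ± 0.07 and -0.17 ± 0.08, though Rfc2 passed in run 1 alone.

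Pcna, encoding the clamp, had the highest level per length of the 45 genes in both groups, at 394 ± 14.7 CPM per kilobase untreated and 343 ± 42.3 treated (SD, n = 3). It was at 503, 475 and 509.7 CPM untreated and 479, 374 and 443 CPM treated, with doxycycline mouse 1 inside the untreated range (log2 difference -0.20 ± 0.09, edgeR adjusted p = 0.11). Without doxycycline mouse 1, Pcna and Rfc3 passed (edgeR adjusted p = 0.049 and 0.038) and 4 genes of this step were lower. The count was 0 without untreated mouse 2, where 18.3% of all genes were lower and Rfc1 had an edgeR adjusted p = 0.059, and 1 without untreated mouse 1, doxycycline mouse 2 or doxycycline mouse 3. Rfc4 was lost without untreated mouse 1 or 2 or doxycycline mouse 2 or 3 (edgeR adjusted p = 0.11, 0.095, 0.068 and 0.062), and its log2 fold change without doxycycline mouse 2 was -0.19. RefSeq lists Pcna-ps1 and Pcna-ps2, pseudogenes that may take or share reads of Pcna.

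Of the 4 genes of single-strand binding and strand joining, 1 was lower (25%, against 25.2% of all genes tested). Rpa2, the middle subunit of the single-strand binding protein RPA, was at 171, 171 and 177 CPM in the untreated mice and 129.9, 120.4 and 138 CPM in the doxycycline mice. It fell by 25.2% (log2 fold change -0.42 ± 0.07, edgeR adjusted p = 0.0015). Rpa1, the large subunit of the same complex, was at 378, 362 and 391 CPM untreated and 435, 381 and 446 CPM treated. Doxycycline mouse 2, the lowest treated mouse, lay within the untreated range of Rpa1 (log2 difference 0.16 ± 0.08, edgeR adjusted p = 0.12). Leaving it out raises the treated mean, and the gene then passed as higher (0.24 ± 0.07, edgeR adjusted p = 0.019).

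Lig1, the ligase that seals Okazaki fragments, was at 524, 518 and 526 CPM untreated and 530.2, 391 and 535 CPM treated. Its treated mice 1 and 3 were slightly above the untreated mice and treated mouse 2 far below (log2 difference -0.11 ± 0.12, edgeR adjusted p = 0.47). Fen1, the nuclease that trims the fragments, was at 209, 224 and 226 CPM untreated and 226, 195 and 223 CPM treated (-0.03 ± 0.08, edgeR adjusted p = 0.75). For Lig1 and Fen1 the difference was 0.04 and 0.05 log2 units without doxycycline mouse 2.

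In the supply of deoxynucleotides Tyms, Tk1 and Dut fell (60%, against 25.2% of all genes tested), and Rrm1 and Rrm2 did not pass. Tyms, thymidylate synthase, was at 169, 169 and 162 CPM in the untreated mice and 126, 109 and 122 CPM in the doxycycline mice. It had the smallest p of the 45 genes (log2 fold change -0.49 ± 0.07, edgeR adjusted p = 0.00098). Tk1, the cytosolic thymidine kinase of the salvage route, was at 107, 110.0 and 121 CPM untreated and 76.0, 69.6 and 90.0 CPM treated (-0.52 ± 0.10, edgeR adjusted p = 0.0034). Dut, which hydrolyses dUTP to give the precursor of dTMP, was at 683, 663 and 647 CPM untreated and 512, 384 and 576 CPM treated (-0.44 ± 0.14, edgeR adjusted p = 0.029). In each of these genes the treated mice lay below the untreated mice. The call of Dut was lost without untreated mouse 1, 2 or 3 or doxycycline mouse 1 (edgeR adjusted p = 0.082, 0.072, 0.053 and 0.065), and its log2 fold change without doxycycline mouse 2 was -0.27 (edgeR adjusted p = 0.018). RefSeq lists a transcribed pseudogene Tyms-ps.

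Rrm1, the large subunit of ribonucleotide reductase, was at 1023, 949.9 and 957 CPM untreated and 857, 729 and 905 CPM treated. Its groups did not overlap, and it just missed the threshold (log2 difference -0.23 ± 0.09, edgeR adjusted p = 0.055), which it passed without doxycycline mouse 3 (0.03). It also passed with library totals only, with no filter on low counts, in DESeq2 and with the replicate block, and its highest adjusted p over the 17 alternative fits was 0.15. Rrm2, the small subunit whose protein is made in S phase, was at 514, 525 and 556 CPM untreated and 717, 505 and 669.6 CPM treated. Doxycycline mice 1 and 3 were above all untreated mice and doxycycline mouse 2 below all of them (0.25 ± 0.12, edgeR adjusted p = 0.13). With doxycycline mouse 2 left out, which raises the treated mean, Rrm2 passed at 1.32-fold (log2 fold change 0.40 ± 0.07, edgeR adjusted p = 0.0028). With all mice it did not pass.

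Within a mouse, the ratio of Rrm2 to Rrm1 per length was 0.921, 1.01 and 1.06 in the untreated mice and 1.53, 1.27 and 1.36 in the doxycycline mice. Doxycycline mouse 2 was on the same side here as the other treated mice (exact permutation p = 0.1, 0.15 adjusted over 6 pairs). In the order of levels per length among the 45 genes, Rrm2 stood in place 7 in untreated and place 2 in doxycycline cells.

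**Figure D4:**
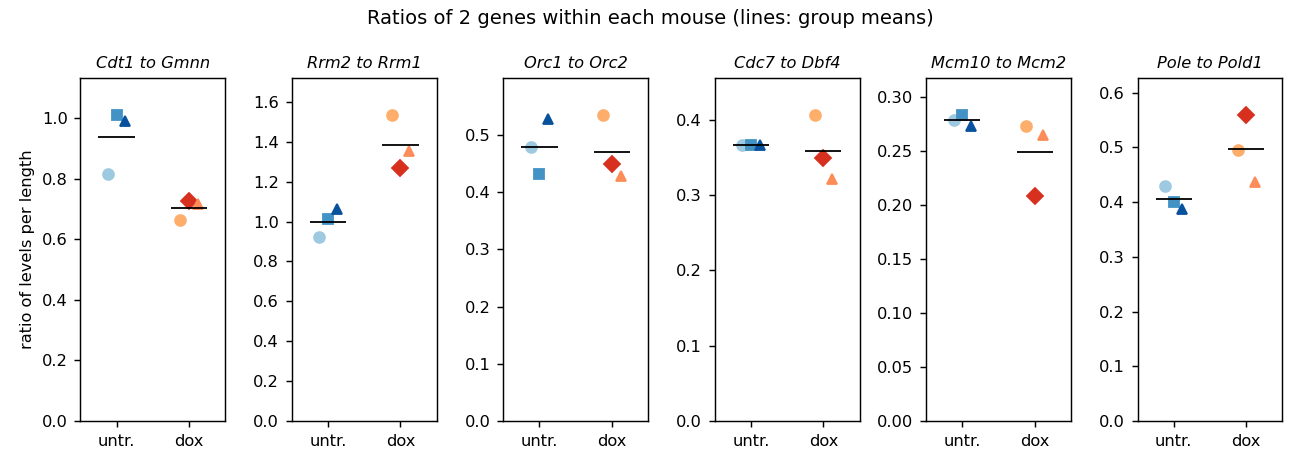
The ratio of the levels per length of 2 genes in the same mouse (y axes, from 0) is shown for 6 pairs, with 1 point per mouse, blue for untreated and orange or red for doxycycline (mouse 2 the red diamond), and a line at each group mean. Cdt1 to Gmnn is lower and Rrm2 to Rrm1 higher in every treated mouse, while Orc1 to Orc2 and Cdc7 to Dbf4 overlap.

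Uhrf1, which brings the maintenance methyltransferase to newly replicated DNA, was at the low end of the log2 fold changes, not separable from Pold1 (-0.58) and Gins2 (-0.57). Uhrf1 was at 858, 873 and 806 CPM in the untreated mice and 638, 461 and 603 CPM in the doxycycline mice, a fall of 32.9% (log2 fold change -0.58 ± 0.12, edgeR adjusted p = 0.0044). Slbp, which binds the stem-loop of replication-dependent histone mRNAs, was at 204, 204 and 218 CPM untreated and 241, 167 and 228 CPM treated. Doxycycline mice 1 and 3 were above and doxycycline mouse 2 below the untreated mice in Slbp (0.02 ± 0.13, edgeR adjusted p = 0.90). Slbp passed as higher only without both doxycycline mouse 2, its lowest treated mouse, and untreated mouse 3, its highest untreated mouse (0.21 ± 0.07, edgeR adjusted p = 0.039). Leaving out these mice widens the difference by itself.

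A further 112 genes in 8 lists that surround replication were counted in the same fit, of which 47 (42.0%) were lower and 10 higher, against 25.2% lower and 24.8% higher of all genes tested. The shares lower in the lists ran from 12.5% in G2/M and mitosis, through 36.4% in fork protection and in G1/S, to 71.4% in other polymerase genes. Leaving out 1 mouse, where 18.3% to 23.6% of all genes were lower, gave 30 to 45 lower and 5 to 13 higher, where removing untreated mouse 1 gave 31 lower, removing untreated mouse 2 gave 30 lower and 5 higher, removing doxycycline mouse 1 gave 5 higher, and removing doxycycline mouse 2 gave 13 higher. Without both doxycycline mouse 2 and untreated mouse 3, 36 were lower and 15 higher. Of 12 other licensing and helicase genes 5 were lower and 1 higher, including Mcm8 (-0.52 ± 0.13, edgeR adjusted p = 0.0097) and Mcmbp (-0.25 ± 0.07, edgeR adjusted p = 0.016), an MCM-binding protein. That list had 1 lower member when untreated mouse 1 or 2 was removed and 2 when doxycycline mouse 2 or 3 was removed, and 0 were higher without untreated mouse 1 or 2 or doxycycline mouse 1. Of 14 other polymerase, clamp loader and strand genes 10 were lower and 1 higher, led by the ligase gene Lig3 (-0.47 ± 0.06, edgeR adjusted p = 0.00054) and the nuclease gene Dna2 (-0.53 ± 0.08, edgeR adjusted p = 0.0012). The count lower was 5 with untreated mouse 2 removed and 6 with doxycycline mouse 2 or 3 removed, and the count higher was 0 without untreated mouse 1 or 2 or doxycycline mouse 1 or 3.

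Of 11 fork protection and checkpoint genes 4 were lower (36.4%) and 1 higher, against 25.2% and 24.8% of all genes tested. Rad1 and Hus1, subunits of the checkpoint clamp, had log2 fold changes of -0.49 ± 0.08 and -0.48 ± 0.09 (edgeR adjusted p = 0.0018 and 0.003), and the count higher was 0 without untreated mouse 1 or 2 or doxycycline mouse 1 or 3. Of 11 other deoxynucleotide genes 5 were lower (45.5%) and 1 higher, or 2 higher without doxycycline mouse 3. Shmt1, which makes the folate that Tyms uses, changed by -0.79 ± 0.09, and the mitochondrial kinase gene Tk2 by 0.65 ± 0.09 (edgeR adjusted p = 0.00035 and 0.00058). Of 9 chromatin assembly genes 6 were lower (66.7%) and 1 higher, and 3 were lower without untreated mouse 1. Supt16, a subunit of the histone chaperone FACT, changed by -0.43 ± 0.07 and the chaperone gene Asf1b by 0.45 ± 0.08 (edgeR adjusted p = 0.0016 and 0.0027).

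Of 9 genes that control turnover of Cdt1 and geminin, 6 were lower (66.7%) and 0 higher, against 25.2% and 24.8% of all genes tested. At an unadjusted p under 0.05 in edgeR 0 were higher too, where the share of all genes was not counted. Without both doxycycline mouse 2 and untreated mouse 3, 1 was higher. Skp2 and Ddb1, parts of ubiquitin ligases that act on Cdt1, had log2 fold changes of -0.77 ± 0.10 and -0.53 ± 0.07 (edgeR adjusted p = 0.0005 and 0.00052). Of 22 genes of G1/S transcription and its kinases, 8 were lower (36.4%) and 5 higher, against 25.2% and 24.8% of all genes tested. The count higher in this list is near the share of all genes. Rbl2, a retinoblastoma family repressor, rose by 1.22 ± 0.09 and Cdk6, a kinase that inactivates that family, changed by -1.32 ± 0.13 (edgeR adjusted p = 5.2e-05 and 0.0002). The 8 E2F genes were picked from that list after the values were seen. Of these, 5 were lower (E2f1, E2f3, E2f4, E2f5 and E2f6) and 2 higher, against 25.2% and 24.8% of all genes tested. The count higher is near the share of all genes. The higher were E2f2 (0.65 ± 0.08, edgeR adjusted p = 0.00043) and E2f7 (1.26 ± 0.38, edgeR adjusted p = 0.038). The activity of E2F factors was not tested. The G1/S count was 5 lower without untreated mouse 1, 2 or 3 or doxycycline mouse 2, and 3 higher without untreated mouse 2 or doxycycline mouse 1. It was 8 higher without both doxycycline mouse 2 and untreated mouse 3, where 24.8% of all genes were higher.

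Of 24 genes of G2/M and mitosis, 3 (12.5%) were lower and 0 higher, below the 25.2% and 24.8% of all genes tested. Their median log2 fold change was -0.09, and that of the replication genes, of which 25 of 45 were lower, was -0.30. At an unadjusted p under 0.05 in edgeR, 5 of the 24 were lower and 0 higher, and the share of all genes there was not counted. Aurka, a spindle kinase gene, changed by -0.32 ± 0.08 and Ccnb1, encoding cyclin B1, by -0.35 ± 0.09 (edgeR adjusted p = 0.0091 and 0.012). The mitosis count was 5 lower without doxycycline mouse 3, and 1 was higher without doxycycline mouse 2. The difference between the mitosis and replication lists was not tested.

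**Figure D5:**
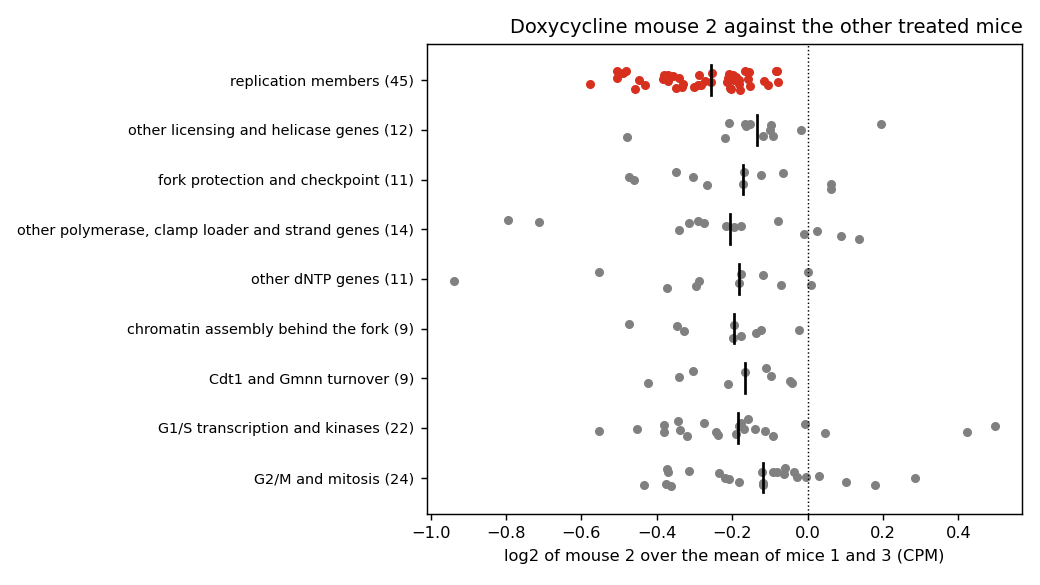
For each gene, the log2 ratio of doxycycline mouse 2 to the mean of doxycycline mice 1 and 3 (x axis) is plotted for the 45 replication genes (red) and the 8 surrounding lists (grey), with list sizes in brackets and a bar at each median. All 45 replication genes lie left of 0, with a median of -0.26, and the medians of the 8 lists also lie left of 0, from -0.21 to -0.12, with every gene of the chromatin assembly and turnover lists left of 0 as well.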

How the data were processed

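The data are RNA-seq counts of leukemia cells from 3 untreated and 3 doxycycline mice, with 2 sequencing runs of each RNA. Library names give a sort for every mouse but untreated mouse 3. The authors deposited raw counts per gene with a gene length. CASAVA 1.8.1, featureCounts and the mm10 build are named in the submitters' processing notes, while the aligner, the annotation, the strand setting and the handling of reads with several matches have no entry in the sources used here. Exons of 16 of the 45 genes overlap another gene in GENCODE, 14 of them on the other strand (8 of the 25 genes that fell are among the 16), so their counts may hold shared reads.

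Both runs of a mouse were added, and n counts mice. All mice carry 1 leukemia, so p-values measure the spread between these recipients only. Entrez identifiers were matched to symbols in a RefSeq table (GRCm38.p6), which named 93% of them. Counts were compared with edgeR 4.0.16 in R 4.3.3 (filterByExpr, TMM scaling, robust quasi-likelihood F test without a block), with Benjamini-Hochberg adjustment over all 13134 genes tested. The SE was taken from the fold change and F (|log2 fold change| over root F). CPM uses TMM-scaled totals, and CPM per kilobase divides it by the deposited length. Totals of 29904744 to 44949303 counts put each of the 45 genes at 1366 counts or more in every mouse. The test was checked on simulated data.

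The 45 genes, the lists and the naming rule were chosen with earlier results of these data known. Values in every mouse are given for the 3 genes with the smallest p per step, the most abundant gene per length and the genes of the ratio pairs. Others (Cdc6, Mcm4, Gins3 and Fen1) were chosen after their values were seen. The 2 genes with the smallest p are named from each surrounding list. Alternatives were other size factors and filters, DESeq2 1.42.0, limma-voom (limma 3.58.1), single runs, a block for the replicate number, and fits with a mouse removed.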

Additional observations from a re-analysis of the deposited data

How the results depend on the processing

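Other size factors, filters, tests, single runs and the replicate block gave 25 to 28 replication genes lower and 0 higher, against 25 and 0. In these fits 18.2% to 26.1% of all genes were lower and 17.5% to 26% higher. Leaving out 1 mouse gave 18 to 28 lower and 0 to 3 higher. There 18.3% to 23.6% of all genes were lower and 18.1% to 23.5% higher, and the 28 came where 20.5% were lower. The counts of 18 and 19 came without untreated mouse 1 and 2, where 19.6% and 18.3% of all genes were lower, against 25.2%. Without both untreated mouse 3 and doxycycline mouse 2, 23 were lower and 4 higher, against 24.7% and 24.8% of all genes. None of the 25 called genes changed sign in any of the 17 alternative fits. With the replicate number as a block, 27 genes were lower and 0 higher, against 24% and 23.6% of all genes. Same-numbered mice are not stated to be paired, and the correlations of their deviations over all genes were 0.156, -0.012 and -0.103. Not every mouse correlated best with its own number. Each gene had 1366 counts or more in every mouse, and runs of a mouse differed by a median of 0.02 log2 units, against a median SD between mice of 0.05 untreated and 0.17 treated.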
